A study of Mus musculus with 6 samples.

Results

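The genes described are 35 genes of DNA replication, chosen by name, whose products license origins, unwind DNA, copy and join the strands, supply nucleotides and chromatin proteins, or drive entry into S phase. They were chosen with earlier results of these data known, so their shares beside those of all genes are descriptions. All 35 had a probe set with a single gene symbol, out of 19938 such genes on the arrays, and a gene with several was read from the one whose mean over the 6 arrays was highest. The arrays are 6 Affymetrix Mouse Gene 1.0 arrays of 2 populations from one kind of culture, the dendritic population (3 arrays) and the macrophage population (3 arrays). The source of both was C57B/6 mouse bone marrow, cultured 6 days in recombinant GM-CSF at 20 ng/ml, a cytokine that expands and differentiates myeloid cells, and both were unstimulated. No mutation, transgene or drug is given for either population, so they share the strain, the cytokine and the time in culture. The labels tell neither how the populations were separated nor whether replicates are different mice or cultures, so the p-values rest on a spread between samples that may be technical.

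DNA replication starts when origins are licensed by loading the MCM2-7 helicase with the help of Cdc6 and Cdt1. At the start of S phase, kinases and the factors Cdc45, GINS and Mcm10 turn the loaded helicase into an active fork, where polymerase alpha-primase lays primers, polymerases delta and epsilon extend them, and the PCNA clamp, its loader RFC, the flap nuclease Fen1 and ligase Lig1 finish the lagging strand. Many of these genes are targets of E2F transcription factors, and GM-CSF cultures hold precursors that still divide beside cells that have left the cycle.

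Array values are RMA values on the log2 scale. A difference is the mean of the 3 dendritic arrays less that of the 3 macrophage arrays, given ± its SE from the fit (n = 3 each). A gene was called when limma, fitted to all 19938 genes, gave a Benjamini-Hochberg adjusted p under 0.05. RMA values carry no detection calls. Array medians, over all probe sets, were 4.79 to 4.96, and the mean of 8 of the 35 genes in the dendritic arrays, and of 5 in the macrophage arrays, lay below the lowest of these medians. Whether such genes are above background is not known from these values. Because the samples are bulk RNA, fewer replicating cells and less transcript per cell cannot be told apart.

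The labels fitted most of the defining markers. Of 8 dendritic markers 6 were higher and 1, Itgax, was lower in the dendritic population, with a summed linear level of 6278 to 6816 in dendritic and 709.8 to 1356 in macrophage arrays. All 7 measured macrophage markers were lower, with summed levels of 316.4 to 427.6 in dendritic and 7792 to 9503 in macrophage arrays. Markers of hematopoietic progenitors, cells that divide in marrow, were higher in 4 of 8 cases, with summed levels of 318.3 to 624.3 in dendritic and 160.4 to 198.1 in macrophage arrays. The stem cell factor receptor Kit, the progenitor marker with the largest difference, had log2 values of 8.599, 7.07 and 6.50 in dendritic arrays, against 4.34, 4.67 and 4.85 in macrophage arrays. Of 12 neutrophil and promyelocyte markers none was higher and 1, Mpo, was lower (called under 10 of 17 alternatives), with summed levels of 5493, 3431 and 2258 in dendritic and 6144, 2483 and 3106 in macrophage arrays. The arrays numbered 1 were the highest of their population for 7 of these 12, among them Retnlg, a granulocyte gene named after its values were seen, with 7.43, 4.33 and 4.32 in dendritic and 7.39, 4.31 and 4.25 in macrophage arrays. Plasmacytoid markers were higher in 2 of 7 cases (2443 to 2922 in dendritic and 802.4 to 1089 in macrophage arrays), B cell markers in 1 of 7 (145.7 to 202.3 and 140.2 to 155.2). Of the erythroid (5 measured), T and NK cell (7) and mast cell and basophil (8) markers none was called. Their summed levels were 120 to 147.5 in dendritic and 113.1 to 132.2 in macrophage arrays (erythroid), 90.9 to 123.8 and 111.5 to 155.1 (T and NK cell), and 189.4 to 255.6 and 157.3 to 210.3 (mast cell and basophil). The part of progenitors or other cells in the results below was not tested.

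The replication genes moved in both directions. In the dendritic population 10 of 35 (28.6%) were higher, where 9.98% of all genes were called higher, and 5 (14.3%) were lower, close to the 11.6% of all genes called lower. The higher genes were Mcm6, Tk1, Pold1, Dut, Tyms, Uhrf1, Pole, Fen1, Rfc3 and Lig1. The lower genes were Rrm2, E2f1, Gins1, Pcna and Cdc45. The median difference was 0.12 over the 35 genes and 0.034 over all genes, and 22 of 35 differences were above 0, as were 11222 of 19938 over all genes. For 20 of the 35 genes (57.1%) no dendritic value fell within the macrophage range or the reverse, where 34% of all genes do not overlap. In that count 15 of 35 genes stood higher, where 17.3% of all genes did. Another 5 of 35 (14.3%) stood lower, near the 16.7% of all genes. With replicate number added as a block, 12 genes were higher and 5 lower (12.2% and 13.9% of all genes), Mcm2 and Mcm3 being added. Without dendritic replicate 2, 9 genes were higher and 2 lower, where 1763 and 1854 of all 19938 genes were. Without macrophage replicate 2 the counts were 7 and 2, where 1487 and 1824 of all genes were. With all arrays 1990 of all genes were called higher and 2322 lower. The shares over all genes include many dim genes. With only genes at or above the median level tested, 9 of 26 replication genes were higher and 3 lower. Over all genes at or above that level, the upper 50% of the 19938, 1840 were higher and 2207 lower. Both shares are greater than the 9.98% and 11.6% found without a filter on level. Beside these brighter genes the replication genes were called higher more often and lower less often.

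**Figure D1:**
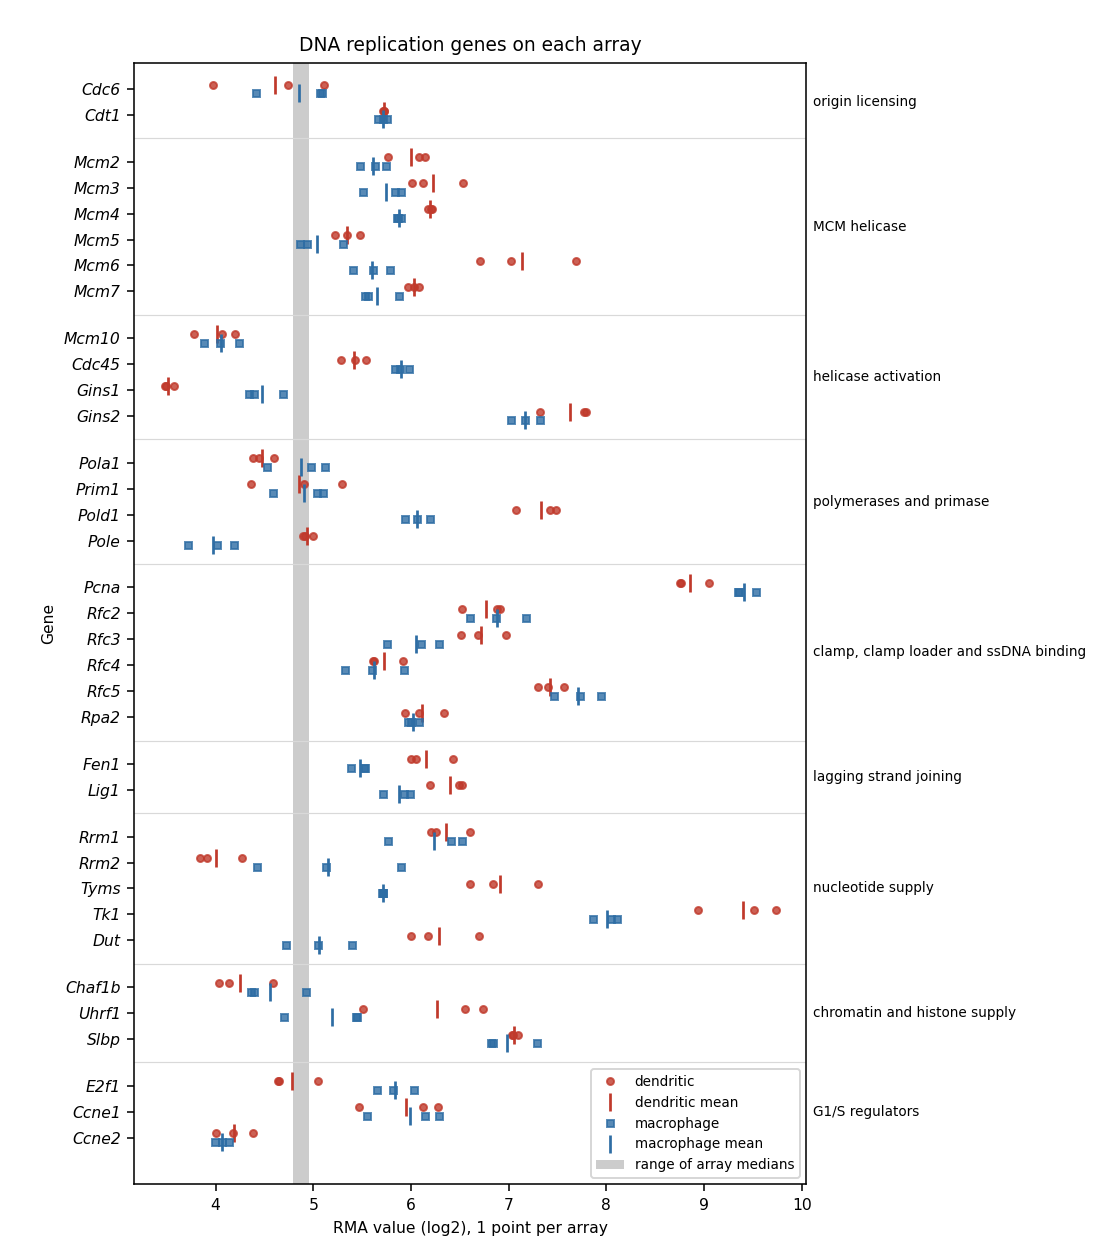
The log2 RMA value of each of the 35 genes on each array (horizontal axis), with dendritic arrays as circles and macrophage arrays as squares, means as vertical ticks and the range of array medians as a grey band. Genes are grouped by role, and the dendritic arrays of Mcm6, Pold1, Pole, Tyms, Tk1 and Dut, among others, stand to the right of the macrophage arrays, while those of Gins1, E2f1 and Rrm2 stand to the left.

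The licensing factors showed no difference that passed the test. Cdt1, which helps load the helicase, had 5.72 on each dendritic array, against 5.67, 5.71 and 5.76 on macrophage arrays, a difference of 0.0093 ± 0.11 with a 95% interval from -0.25 to 0.27. Cdc6, the ATPase that works with it, had 3.97, 5.11 and 4.74 in dendritic arrays, against 4.41, 5.09 and 5.07 in macrophage arrays. Its difference of -0.25 ± 0.29 was not called (limma adjusted p = 0.692). The lowest Cdc6 value of each population was on its array numbered 1.

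Of the 6 subunits of the MCM2-7 ring, Mcm6 was called. Mcm6 (probe set 10357436) had 7.69, 6.70 and 7.02 in dendritic arrays, against 5.78, 5.61 and 5.41 in macrophage arrays. Every dendritic array was above every macrophage array, dendritic replicate 1 being the highest. The difference was 1.54 ± 0.24, a 2.90-fold higher level (limma adjusted p = 0.00144), and it was called under all 17 alternatives (0.000121 to 0.00848). The other 5 subunits all had differences above 0, between 0.31 and 0.47, and none was called.

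Mcm3 had 6.53, 6.13 and 6.01 in dendritic arrays, against 5.90, 5.83 and 5.51 in macrophage arrays. Its populations did not overlap, but its difference of 0.47 ± 0.17 did not pass (limma adjusted p = 0.0918). Mcm4 was the most even of the ring, with 6.18, 6.21 and 6.20 in dendritic arrays, against 5.86, 5.90 and 5.86 in macrophage arrays, and a difference of 0.32 ± 0.11 (limma adjusted p = 0.0782). Mcm2 (0.38 ± 0.15) and Mcm7 (0.38 ± 0.14) did not overlap between populations either, while Mcm5 (0.31 ± 0.15) overlapped. With replicate number added as a block, Mcm2 (limma adjusted p = 0.0447) and Mcm3 (0.0232) were called. The 95% interval of the Mcm6 difference, 1.00 to 2.07, did not reach those of the other subunits, the highest of which ended at 0.87 (Mcm3), and the difference between subunits was not tested. Mcm2, Mcm3, Mcm4 and Mcm7 were each called under 2 or 3 of 17 alternatives and Mcm5 under none.

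Promoters are shown for called genes on either side, with the bases before the start in RefSeq (GRCm38.p6), to set the letters of E2F motifs beside genes that moved in opposite directions. Motifs searched on both strands were TTTCCCGC, TTTGGCGC, TTTCGCGC and TTTGCCGC, forms of the sequence E2F factors bind, in windows of 250 bases before to 50 bases after a start. Each line gives the 250 bases before the start, 5′ to 3′ on the gene's strand, with matches in capitals. Mcm6 and Rfc3 were called higher and hold matches, and Pcna and Rrm2 were called lower and hold none of these letters in the window. Mcm6 and Rfc3 are shown because they hold a match before the outermost start. Pcna and Rrm2 were picked by name, so the contrast among the genes shown follows from the selection. Fen1, Lig1 and Uhrf1 were also called higher, and their windows at the outermost start held no match. Lig1 and Uhrf1 held a match at another start.
Mcm6 (chr1:128359706-128359955, minus strand): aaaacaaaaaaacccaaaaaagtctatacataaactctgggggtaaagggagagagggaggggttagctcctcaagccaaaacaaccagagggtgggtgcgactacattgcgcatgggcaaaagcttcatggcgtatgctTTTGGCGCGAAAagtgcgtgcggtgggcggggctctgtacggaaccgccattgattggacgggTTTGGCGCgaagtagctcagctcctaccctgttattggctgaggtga
Rfc3 (chr5:151651209-151651458, minus strand): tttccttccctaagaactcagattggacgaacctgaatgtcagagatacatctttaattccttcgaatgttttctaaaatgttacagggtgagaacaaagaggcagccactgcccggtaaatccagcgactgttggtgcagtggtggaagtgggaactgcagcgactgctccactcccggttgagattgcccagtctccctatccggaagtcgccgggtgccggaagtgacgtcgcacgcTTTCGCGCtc
Pcna (chr2:132253181-132253430, minus strand): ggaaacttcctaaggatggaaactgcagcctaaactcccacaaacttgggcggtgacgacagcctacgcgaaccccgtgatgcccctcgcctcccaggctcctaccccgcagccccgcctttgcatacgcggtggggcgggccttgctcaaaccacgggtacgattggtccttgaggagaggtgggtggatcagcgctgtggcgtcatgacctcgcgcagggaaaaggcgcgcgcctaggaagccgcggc
Rrm2 (chr12:24708004-24708253, plus strand): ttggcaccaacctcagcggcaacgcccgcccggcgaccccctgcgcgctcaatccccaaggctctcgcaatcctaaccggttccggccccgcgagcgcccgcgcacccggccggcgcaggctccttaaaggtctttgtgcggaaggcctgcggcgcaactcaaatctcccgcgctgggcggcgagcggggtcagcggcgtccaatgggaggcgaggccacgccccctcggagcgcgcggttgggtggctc

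In the Mcm6 promoter the matches begin at -110, -106 and -47, counted from the start at 1, the first pair overlapping on opposite strands. That of Rfc3 begins at -10, and another begins at 1, the first base of the gene. Of the 35 genes 29 had a window in the table, and 11 of these (37.9%) held a match in at least 1 window, against 3.48% of the 15614 tested genes with a window. By call, 5 of 9 higher genes, none of 4 lower genes (Cdc45, Pcna, Rrm2 and E2f1) and 6 of 16 genes not called held a match. The uncalled genes with a match included Mcm3, Mcm5 and Mcm7. Where the window starts at the outermost RefSeq start of the gene, 5 of 20 replication genes (25%) and 2.71% of 9158 tested genes held a match, by call 3 of 6 higher genes, none of 3 lower genes and 2 of 11 genes not called. The E2f1 window of the table starts inside the gene, so it is among the 4 lower genes above but not among these 3, and is not shown. These are letters in a window and not binding sites, and a promoter without them says nothing about E2F.

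Of the 4 factors that activate the helicase, Gins1 and Cdc45 were lower and Gins2 and Mcm10 were not called. Gins1 (probe set 10476989), a subunit of the 4-protein GINS complex that joins Cdc45 and MCM2-7 at the fork, had 3.49, 3.58 and 3.48 in dendritic arrays, against 4.40, 4.35 and 4.69 in macrophage arrays. All these values lie below the array medians, and the dendritic values are lower on every array. The difference was -0.96 ± 0.14, 1.95-fold lower (limma adjusted p = 0.000841). Gins2, its partner, had 7.77, 7.32 and 7.79 in dendritic arrays, against 7.02, 7.17 and 7.32 in macrophage arrays. These arrays were higher in the dendritic population, with dendritic replicate 2 and macrophage replicate 3 nearly equal, and the difference of 0.46 ± 0.16 was not called (limma adjusted p = 0.0841).

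The other subunits, which are not among the 35 genes, were both higher. Gins3 (probe set 10574378) had 8.93, 8.20 and 8.18 in dendritic arrays, against 5.46, 5.17 and 5.09 in macrophage arrays. The difference of 3.20 ± 0.21, 9.17-fold higher (limma adjusted p = 9.96e-06), exceeded that of every one of the 35 genes. Gins4 differed by 0.45 ± 0.12 and was called (limma adjusted p = 0.0248), and is named because it completes the complex, after its values were seen. Its call was lost without dendritic replicate 3 (0.0726) or macrophage replicate 2 (0.119) or 3 (0.0778), and over 17 alternatives the adjusted p lay within 0.00568 to 0.119. Thus 1 GINS subunit was lower, 2 were higher and 1 was not called.

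Cdc45 (probe set 10438378), the helicase cofactor, had 5.28, 5.43 and 5.54 in dendritic arrays, against 5.84, 5.98 and 5.89 in macrophage arrays. It was lower on every dendritic array, by -0.48 ± 0.13 (limma adjusted p = 0.0230). The call was lost under 4 of 17 alternatives, among them leaving out dendritic replicate 2 (0.0605) or macrophage replicate 2 (0.112) or 3 (0.0680), and the adjusted p lay within 0.00644 to 0.112. Mcm10, a scaffold for the active helicase, was below the array medians in both populations and differed by -0.037 ± 0.16 (95% interval -0.39 to 0.32).

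The catalytic subunits of both leading and lagging strand polymerases were higher in the dendritic population. Pold1 (probe set 10562818), the catalytic chain of polymerase delta, had 7.07, 7.42 and 7.49 in dendritic arrays, against 5.93, 6.06 and 6.20 in macrophage arrays. The lowest dendritic array lay well above the highest macrophage array, and the difference was 1.26 ± 0.15, 2.40-fold (limma adjusted p = 0.000316). Pole (probe set 10524169), the catalytic chain of polymerase epsilon, had 4.995, 4.91 and 4.89 in dendritic arrays, against 3.72, 4.02 and 4.19 in macrophage arrays. Its difference was 0.96 ± 0.15 (limma adjusted p = 0.00138), although the macrophage values lie below the array medians and the dendritic values beside them. Both genes were called under all alternatives that gave a value.

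The polymerase delta partners followed Pold1 in part. Pold2 was higher by 1.31 ± 0.22 (limma adjusted p = 0.00265) and Pold3 by 0.78 ± 0.15 (0.00581, named after its values were seen), while Pold4 differed by -0.063 ± 0.15 and was not called (0.876). The partners of Pole in polymerase epsilon, Pole2, Pole3 and Pole4, had differences from -0.32 to 0.11 and none was called. The primer-making enzymes were not called either. Pola1, the catalytic chain of polymerase alpha, had 4.44, 4.59 and 4.38 in dendritic arrays, against 4.98, 5.12 and 4.53 in macrophage arrays, with macrophage replicate 3 inside the dendritic range. Its difference was -0.40 ± 0.17 (limma adjusted p = 0.145, called under 2 of 16 alternatives). The primase subunit Prim1 differed by -0.056 ± 0.24 with overlapping values (95% interval -0.60 to 0.48).

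**Figure D2:**
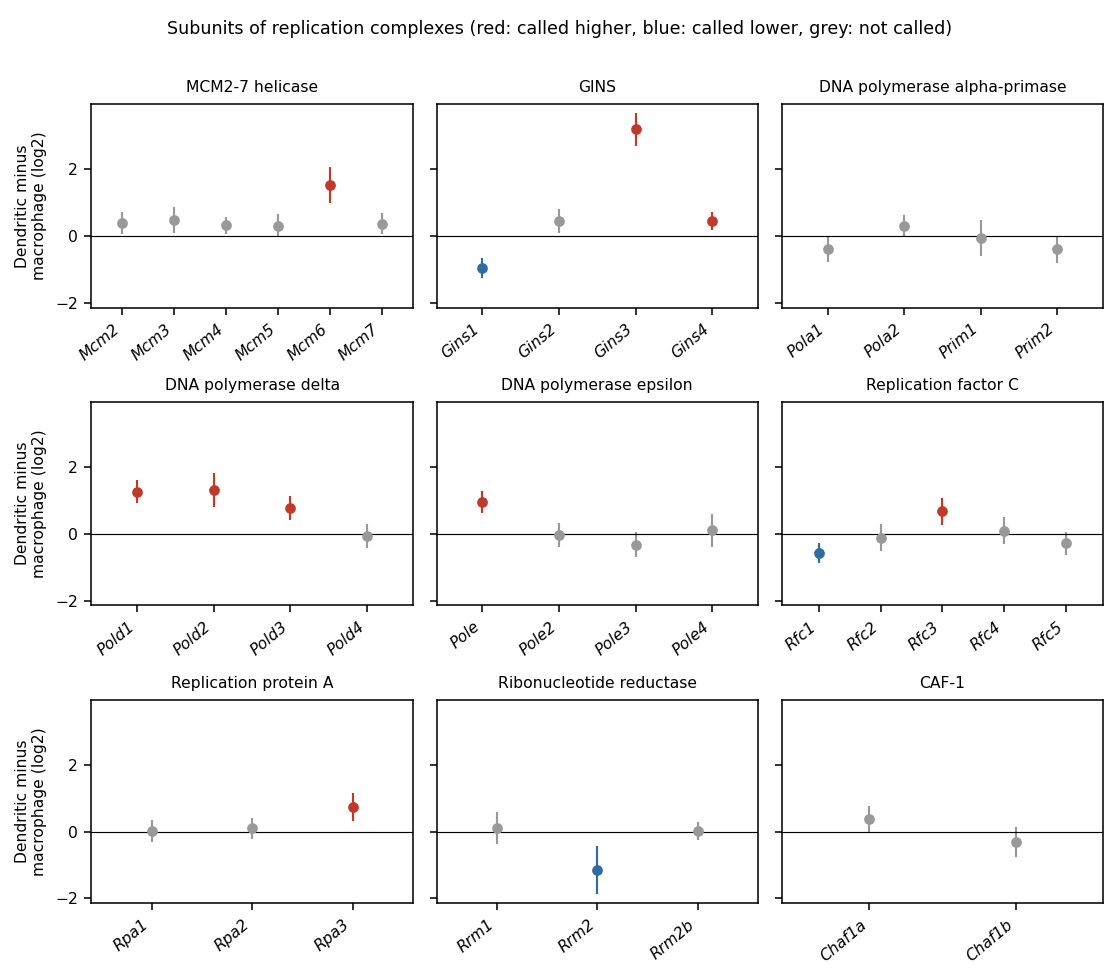
Differences of the subunits of 9 replication complexes or enzymes (vertical axis, dendritic minus macrophage on the log2 scale), with limma 95% intervals as bars. Red points were called higher, blue points lower and grey points were not called. Gins3 at 3.20 and Gins1 at -0.96 mark the widest spread within a complex, and Mcm6 at 1.54 lies above the other MCM subunits.

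Clamp, clamp loader and single-strand binding genes mostly did not pass the test. Pcna (probe set 10487930), the sliding clamp that holds polymerases on DNA, had 9.05, 8.76 and 8.76 in dendritic arrays, against 9.54, 9.36 and 9.35 in macrophage arrays. All dendritic arrays were lower, and the difference was -0.56 ± 0.14, 1.47-fold lower (limma adjusted p = 0.0167). Leaving out dendritic replicate 2 (0.0628) or 3 (0.0667), or macrophage replicate 1 (0.0550) or 2 (0.0522), ended the call, and over all alternatives the adjusted p lay within 0.00233 to 0.0667. A further Pcna probe set held identical values on all arrays, and RefSeq lists pseudogenes of Pcna, so signal of near-identical copies cannot be told apart.

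Of the clamp loader, Rfc3 (probe set 10535979) had 6.97, 6.51 and 6.68 in dendritic arrays, against 6.29, 6.10 and 5.75 in macrophage arrays. It was higher on every dendritic array, by 0.67 ± 0.18 (limma adjusted p = 0.0255). That call was lost under 5 of 17 alternatives, such as leaving out dendritic replicate 1 (0.0609) or 3 (0.0643) or macrophage replicate 2 (0.0660) or 3 (0.0938); all adjusted p lay within 0.00832 to 0.0938. The subunits Rfc2 (-0.12 ± 0.18), Rfc4 (0.099 ± 0.17) and Rfc5 (-0.29 ± 0.15) overlapped between populations. The large subunit Rfc1, outside the 35 genes, was lower by -0.57 ± 0.13 (limma adjusted p = 0.0137). Rpa2, a subunit of the protein that coats single-stranded DNA, differed by 0.099 ± 0.14, with a 95% interval from -0.22 to 0.41. Its partners, outside the 35 genes, are named after their values were seen. Rpa3 was higher by 0.75 ± 0.18 (limma adjusted p = 0.0170), and Rpa1 was not called (0.025 ± 0.15). The Rpa3 call was lost without dendritic replicate 3 (0.0677) or macrophage replicate 2 (0.0696) or 3 (0.0556).

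Both genes that process and seal lagging strand fragments were higher. Fen1 (probe set 10465912), the flap endonuclease, had 6.00, 6.05 and 6.43 in dendritic arrays, against 5.39, 5.53 and 5.51 in macrophage arrays. Dendritic replicate 3 was the highest and all dendritic arrays stood above the macrophage arrays, with a difference of 0.68 ± 0.15 (limma adjusted p = 0.00924, called under all 17 alternatives). Lig1 (probe set 10550102), the replicative DNA ligase, had 6.20, 6.49 and 6.52 in dendritic arrays, against 5.72, 5.99 and 5.92 in macrophage arrays. Its difference of 0.52 ± 0.14 was called (limma adjusted p = 0.0281). The Lig1 call held when dendritic replicate 1 was left out and was lost when any other array was (0.0579 to 0.104). Over all alternatives the adjusted p lay within 0.00648 to 0.104.

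Of the 5 nucleotide supply genes 3 were higher (Tyms, Dut and Tk1), Rrm2 was lower and Rrm1 was not called. Tyms (probe set 10528915), thymidylate synthase, had 6.61, 6.84 and 7.30 in dendritic arrays, against 5.71, 5.72 and 5.71 in macrophage arrays. The macrophage arrays were nearly identical and all below the dendritic arrays, and the difference was 1.20 ± 0.18, 2.30-fold (limma adjusted p = 0.00109). RefSeq lists a transcribed pseudogene of Tyms, whose signal was not separated here. Dut (probe set 10475610), the dUTPase that keeps uracil out of DNA, had 6.18, 6.00 and 6.70 in dendritic arrays, against 5.05, 4.72 and 5.39 in macrophage arrays. In both populations replicate 3 was highest and replicate 2 lowest, and the difference was 1.23 ± 0.22, 2.35-fold (limma adjusted p = 0.00348).

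Tk1, cytosolic thymidine kinase of the salvage pathway, had 2 probe sets of different size. The brighter (10582809) had 9.51, 9.73 and 8.94 in dendritic arrays, against 8.10, 8.05 and 7.87 in macrophage arrays, a difference of 1.39 ± 0.20, 2.62-fold (limma adjusted p = 0.000999). The dimmer (10393431) had 7.26, 7.62 and 7.001 in dendritic arrays, against 6.64, 6.56 and 6.90 in macrophage arrays. Both stood higher on every dendritic array, but the dimmer differed by 0.59 (limma adjusted p = 0.0441), so the size of the Tk1 difference depends on the probe set. Whether either probe set also reads a near-identical copy of Tk1 was not tested.

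The subunits of ribonucleotide reductase, which makes deoxyribonucleotides, differed in their calls, and the difference between them was not tested. Rrm2 (probe set 10394978), its S phase subunit, had 3.91, 3.84 and 4.27 in dendritic arrays, against 4.43, 5.90 and 5.13 in macrophage arrays. Dendritic values were below the array medians and lower than every macrophage value, but macrophage replicate 1 lay close to dendritic replicate 3. The difference was -1.14 ± 0.32, 2.21-fold lower (limma adjusted p = 0.0319). Without macrophage replicate 2 it was -0.77 (0.0655), and the call also ended with all probe sets tested (0.0900), or leaving out dendritic replicate 1 (0.0720) or 2 (0.111) or macrophage replicate 3 (0.0827), the adjusted p lying within 0.00198 to 0.111. Rrm1, the large subunit, had 6.61, 6.25 and 6.21 in dendritic arrays, against 5.76, 6.52 and 6.41 in macrophage arrays. Its populations overlapped (0.12 ± 0.21), and the difference was -0.11 without macrophage replicate 1, the lowest array, and -0.24 without the arrays numbered 1. In the macrophage arrays both subunits were lowest on replicate 1 and highest on replicate 2.

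Of the chromatin genes only Uhrf1 was called. Uhrf1 (probe set 10446074), which recruits the maintenance DNA methyltransferase to new DNA, had 5.51, 6.55 and 6.74 in dendritic arrays, against 4.70, 5.45 and 5.44 in macrophage arrays. Dendritic replicate 1 lay just above the highest macrophage arrays, and in both populations the array numbered 1 was the lowest. The difference was 1.07 ± 0.33, 2.10-fold (limma adjusted p = 0.0459). With replicate number added as a block, the adjusted p was 0.000838, while leaving out any array other than dendritic replicate 1 gave 0.0634 to 0.159. The range over all alternatives was 0.000285 to 0.159. Chaf1b, a subunit of the histone chaperone CAF-1, differed by -0.31 ± 0.20 (95% interval -0.76 to 0.15), and Slbp, which binds the stem-loop of replication-dependent histone mRNAs, by 0.074 ± 0.15 (-0.27 to 0.42).

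Of the G1/S regulators E2f1 was lower and the E-type cyclins were not called. E2f1 (probe set 10488785), the activator of S phase genes, had 4.65, 4.64 and 5.05 in dendritic arrays, against 5.82, 6.04 and 5.65 in macrophage arrays. Every dendritic value lay below the macrophage values, at about the array medians, and the difference was -1.05 ± 0.16, 2.08-fold lower (limma adjusted p = 0.00144, called under all 17 alternatives). Ccne1, the partner of Cdk2 at the G1/S boundary, had 5.47, 6.12 and 6.28 in dendritic arrays, against 5.55, 6.28 and 6.14 in macrophage arrays, a difference of -0.036 ± 0.25 (95% interval -0.61 to 0.54). The array numbered 1 was the lowest in both. Ccne2 had values of 3.9996 to 4.39 in dendritic and 3.996 to 4.13 in macrophage arrays, below the array medians, and a difference of 0.12 ± 0.14.

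**Figure D3:**
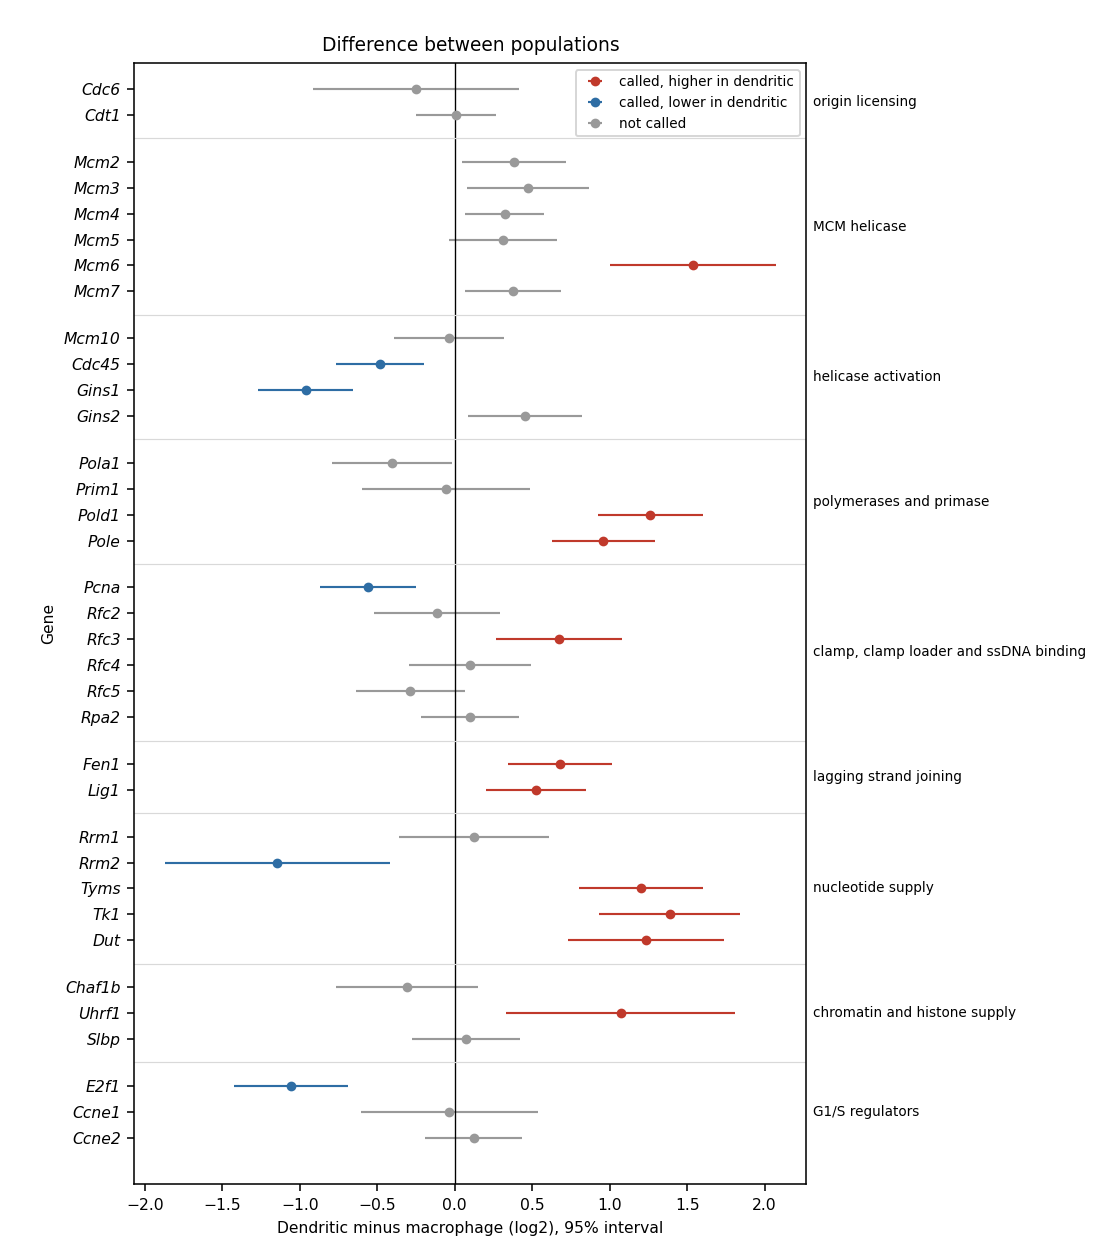
Difference of each of the 35 genes (dendritic minus macrophage on the log2 scale, horizontal axis) with its limma 95% interval, grouped by role. The 10 genes called higher (red) and the 5 called lower (blue) are spread over the roles. The intervals of 5 MCM subunits have their lower ends near 0, that of Mcm5 reaching below it.

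The 20 genes not called include 6 with an unadjusted p under 0.05 and 5 whose populations did not overlap. These 5 (Mcm2, Mcm3, Mcm4, Mcm7 and Gins2) were all higher in the dendritic arrays. Over all genes, called or not, 34% do not overlap. Neither count was made over all uncalled genes, so no excess is read from them. The largest difference among uncalled genes was 0.47 in size and the smallest among called genes 0.48. Arrays with the same number deviated together from their population means over the 35 genes, at r = 0.448 (number 1), 0.208 (number 2) and 0.360 (number 3), a description over genes that are not independent replicates. On the arrays numbered 1, 18 of 35 genes lay below the population mean in both populations and 7 lay above it in both (51.4% and 20%), where 42.8% and 25.1% of all genes did. The neutrophil and promyelocyte markers were highest in sum on those same arrays, and their part in these values was not tested. Without the arrays numbered 1 the counts were 10 higher and 5 lower, as with them.

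Other genes of the pathway, from lists of related genes, were also mixed. Of 42 further replication genes 9 (21.4%) were higher and 3 (7.14%) were lower, where 9.98% and 11.6% of all genes were. Their median difference was 0.043. Besides Gins3 and Pold2, topoisomerase Top1 was higher (0.84 ± 0.17), and the nuclease-helicase Dna2 (-1.68 ± 0.16), the Cdc7 kinase activator Dbf4 (-0.61 ± 0.14) and Rfc1 were lower. With replicate number added as a block, 5 were lower, and with array weights 9. That count was 8 without the arrays numbered 1, 6 without dendritic replicate 1, 2 without dendritic replicate 2 or macrophage replicate 3 and 1 without macrophage replicate 2, and 5 were higher without dendritic replicate 3 or macrophage replicate 3. The call of Dbf4 was lost under 2 of 16 alternatives and that of Rfc1 under 2 of 17 (up to 0.0537 and 0.0737).

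Of 22 measured nucleotide synthesis genes outside the 35, 3 (13.6%) were higher and 7 (31.8%) lower, where 9.98% and 11.6% of all genes were, with a median of -0.20. The lower genes were led by Umps, of uridine synthesis (-1.81 ± 0.16), the nucleoside diphosphate kinase Nme1 (-1.77 ± 0.24) and the nucleotide pyrophosphatase Dctpp1 (-1.32 ± 0.23). The purine enzyme Ppat (1.41 ± 0.20), the folate enzyme Shmt1 (0.46 ± 0.13) and the dNTPase Samhd1 (0.43 ± 0.13) were higher. Shmt1 and Samhd1 lost their calls under 6 of 17 and 5 of 17 alternatives, and 1 gene was higher without any one of dendritic replicates 2 and 3 and macrophage replicates 2 and 3.

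Among 27 E2F and G1 control genes 5 (18.5%) were higher and 6 (22.2%) lower, where 9.98% and 11.6% of all genes were. The D-type cyclin Ccnd2 had 8.12, 9.91 and 9.97 in dendritic arrays, against 5.16, 5.62 and 6.15 in macrophage arrays, a 12.9-fold difference (3.69 ± 0.46, limma adjusted p = 0.000438). Ccnd1 (1.47 ± 0.35) and Rbl1, the pocket protein p107 that represses E2F targets (1.12 ± 0.12), were higher as well. Ccnd1 lost its call under 2 of 17 alternatives (up to 0.0549). The repressor E2f8 (-1.39 ± 0.17) and Myc (-1.03 ± 0.17) were lower, as was Ccna2, the S and G2 cyclin (-1.71 ± 0.51, limma adjusted p = 0.0438). Ccna2 had 4.45, 4.63 and 4.66 in dendritic arrays, against 4.81, 6.91 and 7.14 in macrophage arrays, and was called under 10 of 17 alternatives (8.29e-06 to 0.147). Macrophage replicate 1 was thus close to the dendritic arrays.

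Of 6 measured CDK inhibitors, which restrain G1 and S phase kinases, 1 was called, where 21.6% of all genes were. Cdkn2b was higher by 0.97 ± 0.17 (limma adjusted p = 0.00275), while Cdkn1b (0.40 ± 0.16), Cdkn2c (0.25 ± 0.16), Cdkn1c (0.084 ± 0.18), Cdkn2a (0.052 ± 0.19) and Cdkn2d (-0.49 ± 0.28) did not pass. Cdkn2d was called lower with replicate number added as a block (0.0182). Cdkn1b was called under 5 of 17 alternatives, and 2 inhibitors were called higher without macrophage replicate 1. Of 20 replication stress and repair genes 5 (25%) were higher and 1 (5%) lower, where 9.98% and 11.6% of all genes were. The higher genes were led by the checkpoint kinase Atr (1.47 ± 0.17), Brca1 (1.00 ± 0.21) and the Cdk1-inhibiting kinase Wee1 (0.98 ± 0.14). The lower gene was the checkpoint kinase Chek2 (-1.05 ± 0.16), and with replicate number added as a block, or with array weights, 3 were lower. Leaving out dendritic replicate 1, dendritic replicate 2 or macrophage replicate 1, or both arrays numbered 1, gave 2 lower genes.

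Of 19 measured mitotic genes none was higher and 6 (31.6%) were lower, where 9.98% and 11.6% of all genes were. All 19 differences were below 0, and the median was -1.06. Ccnb2, a B-type cyclin (-2.22 ± 0.52), the proliferation antigen Mki67 (-2.15 ± 0.32) and the spindle checkpoint kinase Bub1b (-1.83 ± 0.21) had the largest differences. Mki67 had 4.57, 4.84 and 4.80 in dendritic arrays, against 6.00, 7.33 and 7.32 in macrophage arrays. Macrophage replicate 1 was the lowest of its population there, and it also held the lowest list mean, 4.98, against 6.37 and 6.35 in the other macrophage arrays. The list mean was 4.67, 4.902 and 4.92 in dendritic arrays.

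The number of mitotic genes called depended on that array. It was 18 of 19 without macrophage replicate 1, 18 without the arrays numbered 1, 13 with replicate number added as a block and 16 with array weights. It was 3 without dendritic replicate 2 or macrophage replicate 2, 3 with all probe sets tested and 2 without macrophage replicate 3. Over the 35 replication genes the mean log2 value was 5.94, 5.95 and 6.04 in dendritic arrays, against 5.64, 5.82 and 5.80 in macrophage arrays. Without macrophage replicate 1, 8 of the 35 were called higher and 4 lower. The difference between the lists was not tested.

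**Figure D4:**
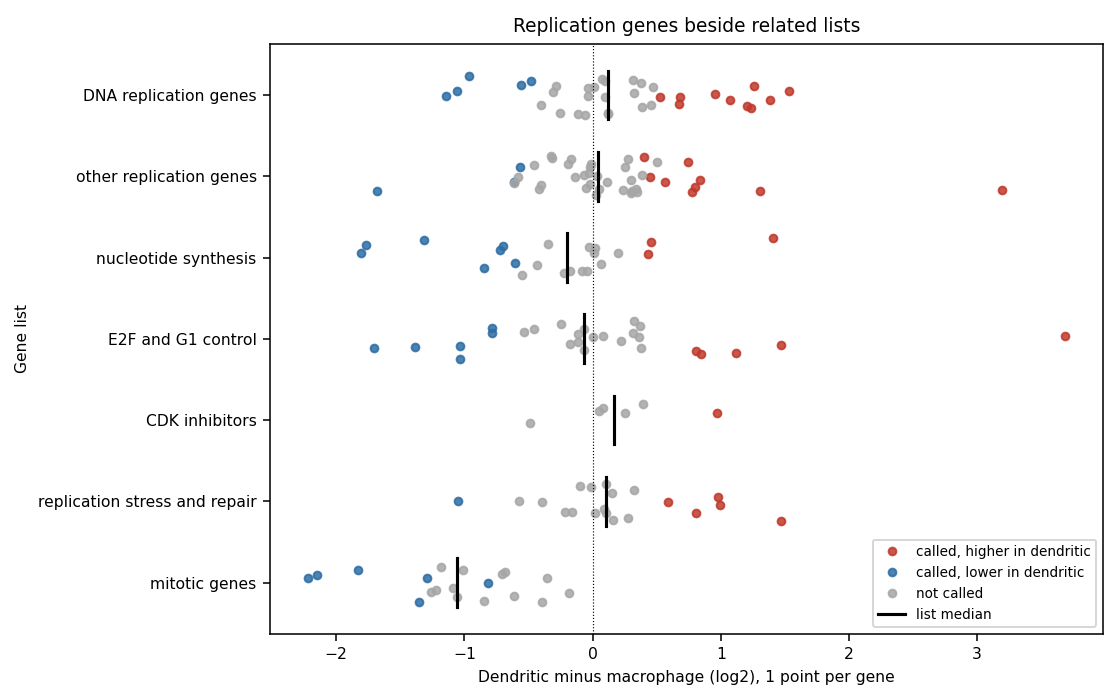
Differences of single genes (dendritic minus macrophage on the log2 scale, horizontal axis) in the 35 DNA replication genes and in 6 related lists, with called genes in red (higher) and blue (lower), others in grey and the list median as a black bar. The replication genes lie on both sides of 0 with a median of 0.12, and all 19 mitotic genes lie below 0 with a median of -1.06.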

How the data were processed

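Total RNA of 6 samples (6 ug each, biotin-labelled) was measured on Affymetrix Mouse Gene 1.0 arrays, per the labels. The submitters' processing notes name RMA and R 3.0.2 for the deposited log2 values, which cover 35556 probe sets. RMA corrects background, normalizes arrays by quantiles and summarizes probes. No source used here names the genome build of the probe sets or any filter. Values span 1.29 to 13.41.

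Gene names came from the platform's annotation of the probe sets: 21789 held 1 symbol, 1621 several and 12146 were unnamed. Of the named ones 21698 were found by Entrez identifier in RefSeq (GRCm38.p6) and 0 symbols changed. Listed genes without a single-symbol probe set were not analysed here.

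With R 4.3.3, limma 3.58.1 (2-sided tests by lmFit with eBayes) was fitted to all 19938 genes with the population as the only term and no filter on level. It was tested on simulated data. Python 3.11.15, pandas 2.3.3 and matplotlib 3.10.9 were used for tables and figures. The arrays' number limits the precision.

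The members and lists were chosen with earlier results of these data known. All 35 genes are named, with up to 3 called genes in each direction from each related list and all CDK inhibitors. A few others are named after their values were seen.

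Titles give both populations replicate numbers 1 to 3. Over all genes, the deviations from the population mean of arrays that share a number correlated at 0.385, 0.147 and 0.272 (numbers 1, 2 and 3), all over 0.1, which is the bar set for taking the numbers as pairs, although dendritic replicate 2 correlated at 0.155 with macrophage replicate 3. What a number stands for is not in the labels. All reported calls and errors come from the fit without pairs, and a further fit took the number as a block. The 17 alternatives were that block, each array left out, 2 filters on level, quantile normalization again, 75th percentile centring, all probe sets tested, the mean or the dimmest of a gene's probe sets, array weights, eBayes with trend and robust, and the arrays numbered 1 left out. The dimmest probe set and the arrays numbered 1 were chosen after seeing the data.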

Additional observations from a re-analysis of the deposited data

How the results depend on the processing

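Over the 17 alternatives none of the 15 called replication genes changed direction, and 9 of them (Mcm6, Pold1, Pole, Tyms, Tk1, Dut, Fen1, Gins1 and E2f1) were called under every alternative that gave them a value. The other 6 (Cdc45, Pcna, Rfc3, Lig1, Rrm2 and Uhrf1) lost their call under at least 4. The alternatives reuse the same arrays and are not independent. Among the 35 genes the mean or dimmest probe set changed the values of only Tk1 and Slbp. Over all genes the number called was 3311 to 4625 when an array was left out, and up to 5901 with array weights. Replication genes called higher numbered 7 to 9 when an array was left out and 7 to 14 over all alternatives. Over all genes those called higher numbered 1487 to 2118 and 1487 to 2819 in the same settings. Replication genes called lower numbered 2 to 4 when an array was left out, where 1824 to 2507 of all genes were. They numbered 3 where only genes at or above the median level were tested, which left 26 of the 35. The replicate block added Mcm2 and Mcm3 and ended no call among the 35.

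Of the 20 genes not called, 10 changed sign under some alternative, all without a call. With 75th percentile centring Mcm10 was at 0.017 and Ccne1 at 0.019, with array weights Mcm10 at 0.018 and Rrm1 at -0.15, and with quantile normalization again Ccne1 at 0.0083. Without the arrays numbered 1, Cdt1 was at -0.015, Rfc4 at -0.15 and Rrm1 at -0.24. When an array was left out, Cdc6 ranged from -0.50 to 0.069, Cdt1 from -0.013 to 0.032, Mcm10 from -0.13 to 0.081, Prim1 from -0.28 to 0.19, Rfc2 from -0.25 to 0.032, Rfc4 from -0.047 to 0.25, Rpa2 from -0.010 to 0.19, Rrm1 from -0.11 to 0.27, Slbp from -0.011 to 0.23 and Ccne1 from -0.26 to 0.21. The cause was not tested. No detection calls were used, so for genes near the array medians whether a population lacks the transcript is not known.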
